A study of Mus musculus with 12 samples.

Results

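The interaction of 2 agents was measured gene by gene in mouse T helper 17 (Th17) cells. For each gene, the change made by ILA in the presence of GSK805 was set against the change made by ILA without it. All 12 libraries of the series entered, in 4 groups of 3, and the genes kept were the 13511 of 29522 with a mean of at least 1 FPKM (reads per kilobase of gene, scaled to the library's total) in at least 1 group. The groups were GSK805+ILA (GSK805 at 0.5 uM with ILA at 200 uM), GSK805 (0.5 uM), ILA (200 uM) and vehicle. All of the cells, vehicle included, began as naive CD4+ T cells isolated with magnets from spleens of C57BL/6J mice of wild type, and all were activated through CD3 and CD28 in RPMI 1640 medium with the CytoBox Th17 supplement. The age of the mice, the length of the culture, the time at which the agents were added and the animals behind each replicate are not named in the labels, which describe the replicates as biological, so every p-value measures the spread between these samples.

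Th17 cells are helper T cells that make interleukin-17 (IL-17) and that respond to interleukin-23 through its receptor. GSK805 is a small molecule that inhibits the Th17 programme. ILA is taken here to be indole-3-lactic acid, a product of bacterial tryptophan breakdown that can bind the aryl hydrocarbon receptor (AhR), a ligand-activated transcription factor with its own place in Th17 cells. Where 2 agents act on a gene without touching each other's effect, their fold changes multiply and the interaction is 0 on a log scale.

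The interaction is given throughout as a difference of log2(FPKM + 1): the log2 change with ILA in GSK805-treated cells minus the log2 change with ILA in cells without GSK805. For a gene that fell with ILA, a positive interaction means that the fall was smaller with GSK805 present, and for a gene that rose with ILA a negative interaction means a smaller rise. A gene was called where the adjusted p of limma's moderated test, by the Benjamini-Hochberg method over all 13511 genes, was below 0.05. The pseudocount of 1 makes fold changes of low genes smaller than they are on the FPKM scale.

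The recovered depth was 17.8 to 23.5 M reads per library. The 8 markers of CD4 T cells were all expressed, with sums of 866 to 918 FPKM with GSK805+ILA, 554 to 581 with GSK805, 937 to 977 with ILA and 510 to 539 with vehicle (these being FPKM of the markers added up in each library). Markers of B, myeloid and dendritic cells summed to at most 4.80 FPKM in any library. Stromal markers reached 11.4 FPKM, through Pecam1, which T cells also express. Haemoglobin transcripts were seen in ILA replicate 2 (Hbb-bs at 23.3 FPKM and Hba-a1 at 18.2 FPKM) and at or near 0 in the other 11 libraries. On the first principal component, which held 52.1% of the variance, the libraries lay in the order vehicle, GSK805, GSK805+ILA and ILA without overlap. The second, with 12.5%, put all 6 libraries with GSK805 below 0 and all 6 without it above 0.

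ILA changed fewer genes, and changed them less, when GSK805 was present. With GSK805, 5331 genes were called for ILA (39.5% of the genes tested; 2968 higher and 2363 lower), and without it 7818 were (57.9%; 4582 higher and 3236 lower). At 2-fold or more the counts were 270 with GSK805 and 940 without. The median size of the log2 change over all kept genes was 0.19 with GSK805 and 0.30 without, against a median standard error of 0.082. Of the 7818 genes called for ILA alone, 7275 (93.1%) had a change of the same sign with GSK805, and 7162 (91.6%) had a smaller one. Choosing genes by their change with ILA alone tends to raise the second share, which was 73.4% over all kept genes. The 2 ILA changes share no library, and their correlation across the 13511 genes was 0.787 (Pearson) and 0.774 (Spearman), a description over genes that are not independent replicates. The interaction itself was called for 1871 genes (13.8%), 696 positive (5.15%) and 1175 negative (8.7%), and exceeded 2-fold for 57 of them. The split between positive and negative depends on scaling: positive calls made up 37.2% here, 46.0% after quantile normalization, 58.2% after trends with GC content and length were removed and 62.4% after median centring. Median centring moved the median ILA change of all genes without GSK805 to -0.07, against 0.06 as deposited.

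**Figure D1:**
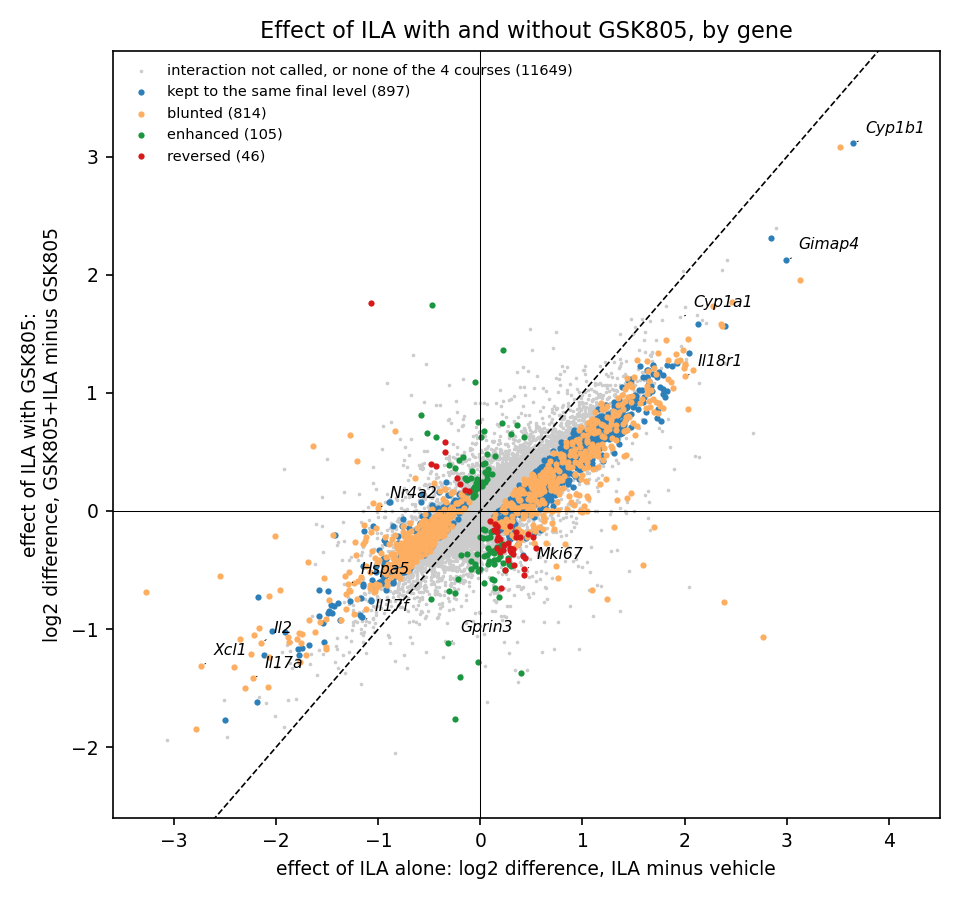
Change with ILA in the presence of GSK805 (vertical, log2) against the change with ILA alone (horizontal, log2) for the 13511 kept genes, coloured by course, with a dashed line of equal change. Most points lie nearer to 0 on the vertical than on the horizontal axis: 9917 genes (73.4%) had a smaller change with GSK805 than without.

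The genes with a called interaction were sorted by the course they followed. The largest class, 897 genes (47.9% of the 1871), was kept to the same final level: ILA alone and GSK805 alone moved the gene the same way, and with both agents it stayed within 0.5 log2 of its level with ILA. In this class 679 genes went up and 218 down, and ILA was the stronger agent in 834. For 147 of the 897, the level with both agents was still called as different from the level with ILA. The next, 814 genes (43.5%), was blunted: the ILA change was smaller with GSK805, with no such shared end point. It held 397 rises and 417 falls, and for 706 of the 814 genes GSK805 alone was not called. In 105 genes (5.61%) the ILA change was enhanced, that is called with GSK805 and larger than without, and in 94 of them ILA alone was not called. For the 50 enhanced rises the medians from vehicle were 0.005 with GSK805+ILA, -0.35 with GSK805 and -0.03 with ILA. For the 55 enhanced falls they were -0.24, 0.16 and 0.08. In 46 genes (2.46%) the ILA change was reversed, 37 of them higher with ILA alone but lower with ILA in GSK805-treated cells. The 9 left over followed none of these courses. A further 954 genes were additive: both agents were called and the 95% interval of the interaction lay within 0.5 log2 of 0.

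The 2 main classes differed in which group stood alone. In the class with a shared final level, the vehicle libraries lay apart from all 9 others in 873 of 897 genes (97.3%), above them in 213 and below them in 660, whereas over all kept genes vehicle lay apart in 22.5%. In the blunted class the ILA libraries stood apart in 730 of 814 genes (89.7%), against 22.2% of all kept genes. The sorting used these values, so the shares describe the classes and test nothing. The change with ILA alone, the change with GSK805 alone and the interaction all use the same 3 vehicle libraries, and the class sizes moved when one was left out: without vehicle replicate 1, 2 or 3, the class with a shared final level held 983, 687 and 569 genes. It held 544 without GSK805 replicate 1. Blunted genes numbered 482 without GSK805+ILA replicate 3, and reversed genes 24 without ILA replicate 2 and 30 without ILA replicate 3.

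**Figure D2:**
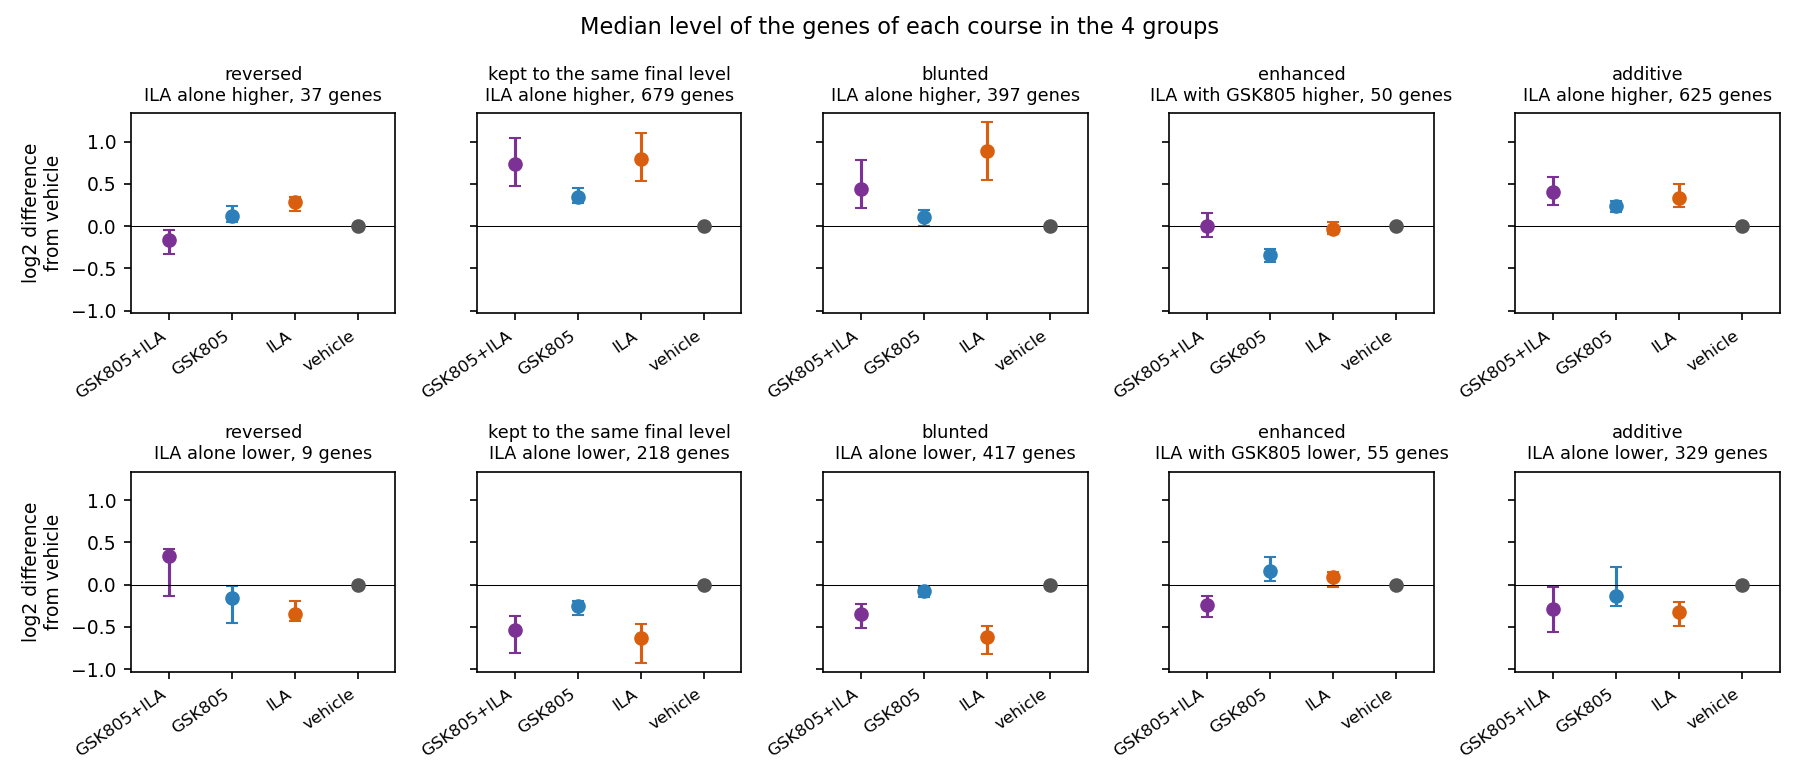
Median log2 difference from vehicle (points) with the quartiles (bars) in each group, by course and direction, with vehicle fixed at 0. In the 679 genes that rose to a shared level the medians were 0.73 with GSK805+ILA, 0.34 with GSK805 and 0.79 with ILA, whereas in the 397 blunted rises they were 0.43, 0.10 and 0.89.

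Among the Th17 cytokines, Il17a and Il21 fell with either agent and fell less with ILA when GSK805 was present. Il17a, which encodes IL-17A, read 36.4, 38.5 and 45.5 FPKM in the GSK805+ILA libraries, 97.7, 122 and 107 in the GSK805 libraries, 153, 173 and 153 in the ILA libraries and 634, 803 and 832 in the vehicle libraries. All 4 groups were free of overlap with each other. ILA lowered Il17a 2.67-fold with GSK805 and 4.70-fold without, an interaction of 0.81 ± 0.17 (SE), adjusted p = 0.0117 by limma, and the mean with both agents was 40.1 ± 4.75 FPKM where the product of the single changes would give 22.3 FPKM. Il21, a cytokine that sustains Th17 and follicular helper cells, read 13.1, 16.9 and 15.5 FPKM in the GSK805+ILA libraries, 31.8, 34.2 and 33.8 in the GSK805 libraries, 20.01, 20.6 and 18.7 in the ILA libraries and 65.98, 72.2 and 75.3 in the vehicle libraries. Its groups, too, did not overlap, and its 2.13-fold fall with GSK805 and 3.47-fold fall without gave an interaction of 0.71 ± 0.11 (SE), adjusted p = 0.00328. Il17f, which lies beside Il17a and encodes IL-17F, was additive: it averaged 140.4 ± 8.57 FPKM with GSK805+ILA, 269 ± 17.97 with GSK805, 279 ± 12.8 with ILA and 624 ± 51.9 with vehicle (SD, n = 3 each), where the product would give 119.9 FPKM. The interaction of Il17f was 0.22 ± 0.10 (SE), adjusted p = 0.159, with a 95% interval of 0.01 to 0.44. It was called without vehicle replicate 1, with the replicate number as a block (adjusted p = 0.0392) and on the linear FPKM scale, so it sits near the threshold. Il22, Ccl20 and Csf2 were not called for the interaction. Il22 varied within groups, from 4.44 to 7.71 FPKM with ILA and 1.42 to 4.59 with vehicle, and with GSK805 it was at most 0.997 FPKM in any library.

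The promoter of Il17a is shown because both agents lowered its transcript. The letters AGGTCA, a core of sites bound by many nuclear receptors, were searched on both strands in the 250 bases before the start. They occur in 3 of the 7 Th17 cytokine promoters (Ccl20, Il17a and Il17f) and in 10.3% of the 8649 kept genes with a promoter sequence. In the stretch of RefSeq sequence below, GRCm38.p6, chr1:20730655-20730904, plus strand, the match is in capitals as its reverse complement. A match of letters is no evidence of binding in these cells.
Il17a: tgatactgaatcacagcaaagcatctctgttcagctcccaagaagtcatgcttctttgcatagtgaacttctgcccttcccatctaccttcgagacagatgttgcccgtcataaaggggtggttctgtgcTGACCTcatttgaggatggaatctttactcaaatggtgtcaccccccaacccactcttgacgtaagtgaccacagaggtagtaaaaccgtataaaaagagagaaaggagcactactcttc

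The receptors and factors of the Th17 list moved apart from each other. Of 18 kept members, 2 had a positive interaction (5.15% of all genes did) and 4 a negative one (8.7% of all genes), and the median was -0.14 against -0.05 for all kept genes. Maf, the gene of c-Maf, a transcription factor induced in Th17 cells, read 25.1, 27.8 and 25.4 FPKM in the GSK805+ILA libraries, 13.8, 13.8 and 11.5 in the GSK805 libraries, 36.5, 37.8 and 34.1 in the ILA libraries and 9.66, 10.9 and 10.8 in the vehicle libraries. No group of Maf overlapped another, and its 1.94-fold rise with GSK805 and 3.24-fold rise without gave an interaction of -0.74 ± 0.11 (SE), adjusted p = 0.00209.

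Il23r, a subunit of the interleukin-23 receptor, fell in both settings but to very low values: 0.345, 0.179 and 0.359 FPKM with GSK805+ILA, 0.584, 1.02 and 0.651 with GSK805, 1.60, 1.69 and 2.25 with ILA and 9.67, 7.68 and 7.15 with vehicle. The vehicle libraries lay far above the others, and with both agents little was left to count. Its interaction of 1.25 ± 0.19 (SE) on the log2(FPKM + 1) scale (limma adjusted p = 0.00282) was lost with a pseudocount of 0.1 (0.98, adjusted p = 0.0923) and with voom on the recovered reads (0.82, adjusted p = 0.246). Ccr6, a chemokine receptor that guides Th17 cells, was in the same position, at 0.181 ± 0.0977 FPKM with GSK805+ILA, 0.983 ± 0.228 with GSK805, 1.88 ± 0.310 with ILA and 4.80 ± 0.205 with vehicle (SD, n = 3 each). Its interaction changed sign, being 0.27 here, -0.66 with a pseudocount of 0.1 and -1.06 with voom, and no direction is given for it. Il1r1, the receptor for interleukin-1, was blunted (0.37 ± 0.11 (SE), adjusted p = 0.0455), and Il6ra, part of the interleukin-6 receptor, rose to a shared level (-0.41 ± 0.10 (SE), adjusted p = 0.0214). The call of Il1r1 was lost in 13 of 22 alternatives (adjusted p up to 0.112): plain limma moderation, quantile normalization, no filter on low values, a pseudocount of 0.1, leaving out GSK805+ILA replicate 2 or 3, GSK805 replicate 1 or 2, ILA replicate 2 or 3 and vehicle replicate 1, 2 or 3. The call of Il6ra was lost in 4 of 22 alternatives (adjusted p up to 0.129): quantile normalization, no filter on low values, the linear FPKM scale and leaving out GSK805+ILA replicate 3. Rora, which encodes the nuclear receptor RORα, fell with ILA by 1.60-fold with GSK805 and 1.77-fold without, and its interaction was not called (0.14 ± 0.0940 (SE), adjusted p = 0.341).

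**Figure D3:**
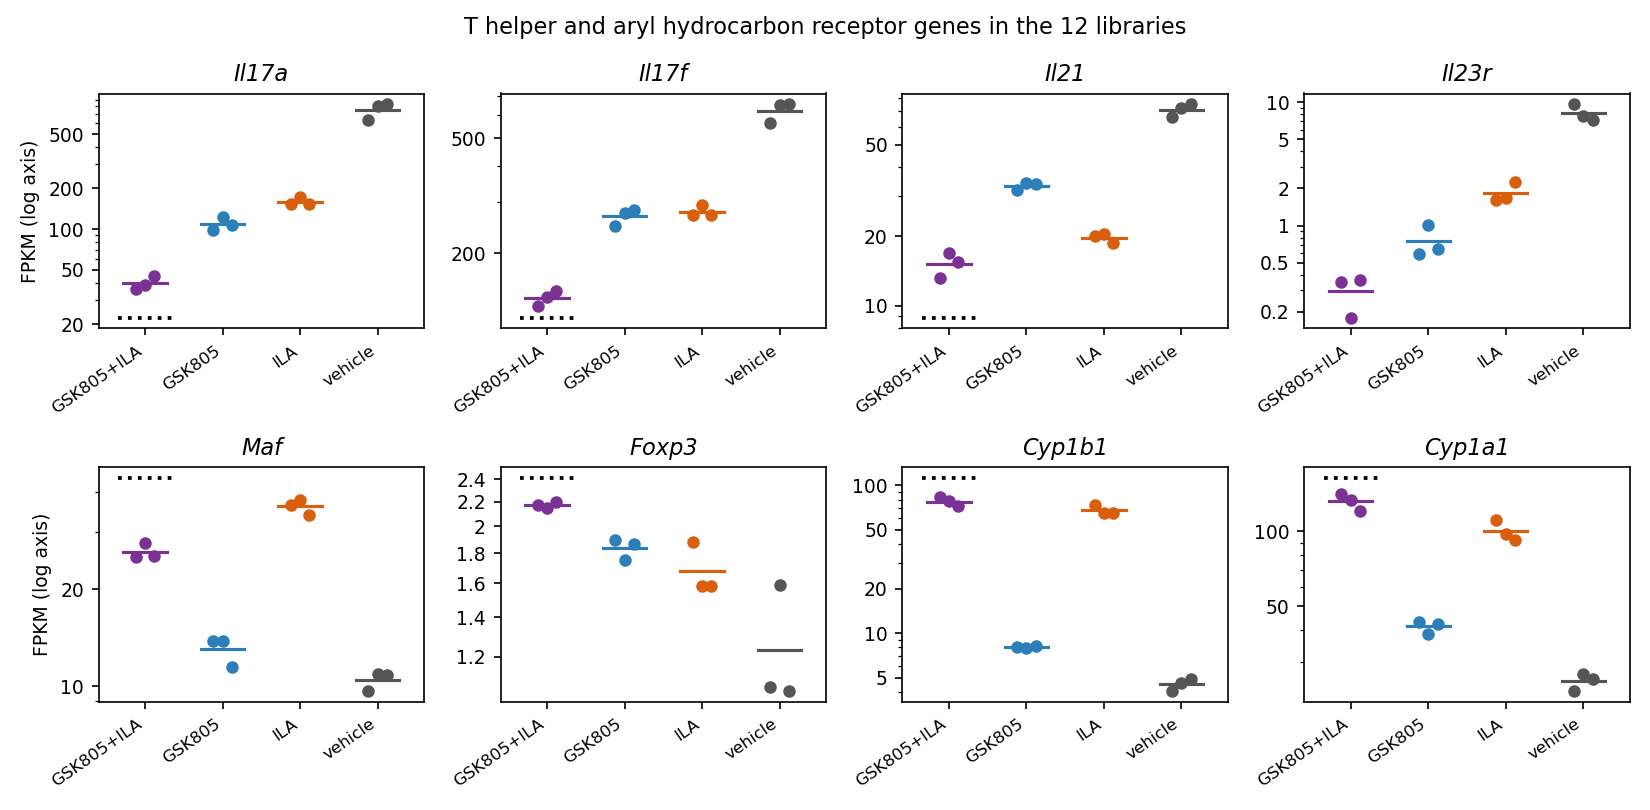
FPKM in each library (points, log axis) for Il17a, Il17f, Il21, Il23r, Maf, Foxp3, Cyp1b1 and Cyp1a1 in the GSK805+ILA, GSK805, ILA and vehicle groups, with the mean as a line and, dotted, the level that the single changes would give if they multiplied. Il17a with both agents lies above its dotted line (mean 40.1 against 22.3 FPKM), and Maf lies below its own; the line is not drawn for Il23r, where it falls under 0.

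Most targets of AhR rose with ILA, with GSK805 and without it. Over the 9 kept members of the AhR list, 6 rose with ILA in GSK805-treated cells (22.0% of all genes rose there) and 7 rose with ILA alone (33.9% of all genes), while 1, Tiparp, a poly-ADP-ribosyltransferase, fell with ILA alone. The interaction was called, as negative, for Cyp1b1 and Asb2. Cyp1b1, which encodes a cytochrome P450 enzyme, read 83.1, 77.9 and 72.1 FPKM in the GSK805+ILA libraries, 8.04, 7.98 and 8.13 in the GSK805 libraries, 73.9, 65.2 and 64.98 in the ILA libraries and 4.05, 4.57 and 4.87 in the vehicle libraries. The groups with ILA overlapped each other and lay far above those without. ILA raised Cyp1b1 8.68-fold with GSK805 and 12.6-fold without, and GSK805 alone raised it 1.65-fold (adjusted p = 5.94e-05), so the interaction was -0.53 ± 0.10 (SE), adjusted p = 0.00654 by limma. On the linear FPKM scale the sign turned: the ILA difference was 6.14 FPKM larger with GSK805 than without. Cyp1a1, another cytochrome P450, averaged 132 ± 10.6 FPKM with GSK805+ILA, 41.5 ± 2.43 with GSK805, 100.2 ± 9.60 with ILA and 25.02 ± 1.96 with vehicle (SD, n = 3 each), with an interaction of -0.32 ± 0.12 (SE), adjusted p = 0.0946. Ahrr, which encodes the repressor of AhR, was additive at -0.10 ± 0.10 (SE), adjusted p = 0.573. After quantile normalization, median centring or removal of GC and length trends, only ILA was called for Ahrr as a single agent. Asb2, part of a ubiquitin ligase, averaged 27.4 ± 2.04 FPKM with GSK805+ILA, 2.34 ± 0.0515 with GSK805, 58.1 ± 3.00 with ILA and 4.15 ± 0.640 with vehicle (SD, n = 3 each), with an interaction of -0.44 ± 0.12 (SE), adjusted p = 0.0337. The call of Asb2 was lost in 13 of 22 alternatives (adjusted p up to 0.248): quantile normalization, median centring, no filter on low values, a pseudocount of 0.1, voom on recovered reads, GC and length trends removed, leaving out GSK805+ILA replicate 1 or 2, GSK805 replicate 1, 2 or 3 and ILA replicate 2 or 3. Ahr itself missed the threshold (-0.42 ± 0.13 (SE), adjusted p = 0.0516).

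The start of the Cyp1b1 promoter is printed because it is the gene with the largest ILA change named here. The core of the xenobiotic response element, GCGTG, was searched on both strands of the same 250 bases. It is common, in 47.0% of all 8649 promoters and in 6 of 8 promoters of the AhR list. Among the other lists searched it ranged from 2 of 14 promoters (Th17 receptors and factors) to 14 of 19 (ribosome biogenesis). The sequence is RefSeq, GRCm38.p6, chr17:79715062-79715311, minus strand, with the match in capitals as its reverse complement.
Cyp1b1: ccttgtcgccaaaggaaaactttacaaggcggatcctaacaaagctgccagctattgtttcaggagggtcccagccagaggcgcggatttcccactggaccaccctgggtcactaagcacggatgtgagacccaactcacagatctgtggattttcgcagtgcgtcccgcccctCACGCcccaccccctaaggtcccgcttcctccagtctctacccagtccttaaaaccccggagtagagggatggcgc

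The unfolded protein response, which guards the endoplasmic reticulum (ER), was a list in which 79.2% of the kept members had a called interaction, against 13.8% of all kept genes. These genes encode the chaperones and enzymes that fold secreted proteins and the machinery that degrades misfolded ones. Of 24 kept members, 20 fell with ILA in GSK805-treated cells (17.5% of all genes fell there) and 22 fell with ILA alone (24.0% of all genes), and 19 had a positive interaction while 0 had a negative one. The median ILA change of the list was -0.53 with GSK805 and -0.94 without, and the median interaction was 0.40 against -0.05 for all kept genes. Over the alternatives of scaling, filter, pseudocount, block and count model, 17 to 22 members were positive and 0 negative.

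Hspa5, which encodes the ER chaperone BiP, read 547, 543 and 570.2 FPKM in the GSK805+ILA libraries, 802, 863 and 889.9 in the GSK805 libraries, 380.0, 378 and 412 in the ILA libraries and 929.5, 972 and 972 in the vehicle libraries. None of the 4 groups overlapped. ILA lowered it 1.54-fold with GSK805 and 2.45-fold without, while GSK805 alone lowered it 1.13-fold, and the interaction was 0.68 ± 0.0650 (SE), adjusted p = 0.000434 by limma. After quantile normalization the interaction of Hspa5 was 0.34 and still called. Its log2 change with ILA in GSK805-treated cells was then -0.81, against -0.62 here. Manf, a secreted ER stress protein, read 56.6, 54.2 and 61.5 FPKM in the GSK805+ILA libraries, 95.8, 102 and 103 in the GSK805 libraries, 44.9, 41.2 and 45.5 in the ILA libraries and 119, 125 and 125 in the vehicle libraries. Its groups did not overlap, and its interaction was 0.67 ± 0.0752 (SE), adjusted p = 0.000835. Hyou1, an ER chaperone, averaged 55.1 ± 1.99 FPKM with GSK805+ILA, 101 ± 8.74 with GSK805, 44.2 ± 2.81 with ILA and 126 ± 4.68 with vehicle (SD, n = 3 each), with an interaction of 0.64 ± 0.0907 (SE), adjusted p = 0.00209. Of the 19 called members 9 were blunted and 10 reached a shared level, among them Creld2 (0.63), Hsp90b1 (0.53) and Dnajb9 (0.54, all as log2 interaction). A shared level allows a difference of up to 0.5 log2. In ILA-treated cells GSK805 raised 18 of the 24 members and lowered 2 (1340 and 1167 of all 13511 genes). Xbp1, which encodes a transcription factor that drives the response, moved little: it averaged 136 ± 3.83 FPKM with GSK805+ILA, 139.9 ± 1.88 with GSK805, 116 ± 3.86 with ILA and 141 ± 0.711 with vehicle (SD, n = 3 each), with an interaction of 0.24 ± 0.0465 (SE), adjusted p = 0.00766.

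Some of these genes carry the ER stress element, CCAAT and CCACG with 9 bases of any kind between them, which was searched on both strands in the 250 bases before the start. It was found in 9 of the 20 list members with a promoter sequence and in 16 of all 8649 promoters (0.185%). All 9 fell with ILA in both settings, and 7 of the 9 had a positive interaction. The element was also present before 7 genes outside the list, of which 0 had a positive and 1 (Pan2) a negative interaction. Of these 7, 1 is Alg12, which shares the element of Creld2 between the 2 genes. The elements of 5 members are set out below with their fixed ends in capitals, from RefSeq on GRCm38.p6; they lie 65 bases before the start for Hspa5 and between 98 and 212 for the rest.
Hspa5: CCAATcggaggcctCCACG
Hsp90b1: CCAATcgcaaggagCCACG
Hsp90b1: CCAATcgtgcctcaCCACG
Pdia6: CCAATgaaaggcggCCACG
Creld2: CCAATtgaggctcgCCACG
Canx: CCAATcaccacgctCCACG
The Hspa5 promoter is given whole, chr2:34771840-34772089, plus strand, with the element in capitals.
Hspa5: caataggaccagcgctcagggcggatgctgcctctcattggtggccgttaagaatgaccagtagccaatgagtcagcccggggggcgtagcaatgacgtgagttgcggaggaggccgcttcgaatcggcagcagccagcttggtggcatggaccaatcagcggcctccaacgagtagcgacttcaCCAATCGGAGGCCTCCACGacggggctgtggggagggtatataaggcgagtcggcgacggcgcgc

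Related lists held fewer calls. In the list of ATF4 targets and amino acid supply, 7 of 26 members had a positive and 2 a negative interaction (5.15% and 8.7% of all genes), and 5 and 2 after quantile normalization. Cth, an enzyme of cysteine synthesis, averaged 3.09 ± 0.239 FPKM with GSK805+ILA, 13.01 ± 1.86 with GSK805, 3.09 ± 0.634 with ILA and 22.1 ± 0.990 with vehicle (SD, n = 3 each), with an interaction of 0.74 ± 0.16 (SE), adjusted p = 0.0141. Slc7a3, a cationic amino acid transporter, was at 0.55 and Psat1, an enzyme of serine synthesis, at 0.32. All 5 of 20 cytosolic tRNA synthetases with a called interaction were positive, with Wars at 0.41, and 2 were called after quantile normalization and 10 after median centring. Heat shock genes gave 4 positive and 0 negative of 14, and 1 and 1 after quantile normalization. Hsp90aa1, a cytosolic chaperone, was at 0.39 ± 0.0368 (SE), adjusted p = 0.000434.

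The machinery that builds ribosomes, which Myc is known to drive in activated T cells, was blunted. Of 25 kept members of the list, 17 fell with ILA in GSK805-treated cells (17.5% of all genes did) and all 25 fell with ILA alone (24.0%), and 20 had a positive interaction (5.15%) and 0 a negative one. The median ILA change was -0.25 with GSK805 and -0.60 without. Srm, which encodes spermidine synthase, read 108, 94.9 and 111 FPKM in the GSK805+ILA libraries, 128, 142 and 142 in the GSK805 libraries, 61.1, 72.2 and 83.4 in the ILA libraries and 134, 143 and 135 in the vehicle libraries. The ILA libraries lay below all others, whereas GSK805 and vehicle overlapped. ILA lowered Srm 1.31-fold with GSK805 and 1.90-fold without (interaction 0.53 ± 0.14 (SE), adjusted p = 0.0286 by limma). This call was lost in 7 of 22 alternatives (adjusted p up to 0.0762): no filter on low values, leaving out GSK805+ILA replicate 1 or 3, GSK805 replicate 1, ILA replicate 2 and vehicle replicate 2 or 3. Dkc1, a pseudouridine synthase of small nucleolar particles, averaged 29.7 ± 1.65 FPKM with GSK805+ILA, 38.7 ± 4.60 with GSK805, 21.2 ± 2.10 with ILA and 39.5 ± 2.54 with vehicle (SD, n = 3 each), with an interaction of 0.51 ± 0.13 (SE), adjusted p = 0.0239. Its call was lost in 7 of 22 alternatives (adjusted p up to 0.0682): no filter on low values, the linear FPKM scale, leaving out GSK805+ILA replicate 3, GSK805 replicate 1 or 2, ILA replicate 1 and vehicle replicate 3. Rrp12, a factor of ribosomal subunit export, showed 0.51 ± 0.11 (SE), adjusted p = 0.0132. Without a filter on low values, which raises the number of genes tested to 29522, 10 of the 25 were positive.

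Cytoplasmic ribosomal protein genes took a course of their own. Of 86 kept, 30 had a positive interaction (5.15% of all genes did) and 0 a negative one, with 7 positive without a filter on low values, 12 without trend and robust moderation and 51 with voom. With ILA in GSK805-treated cells 49 rose and 3 fell, and with ILA alone 7 rose and 20 fell, though the direction with ILA alone flips with scaling, to 30 up and 16 down after quantile normalization and to 1 up and 44 down after median centring. Quantile normalization also left 9 positive and 1 negative interaction. GSK805 alone lowered 77 of the 86 (7.08% of all genes fell with GSK805 alone), and the median change with GSK805 alone was -0.33. Ribosomal protein genes took 12.5% to 13.1% of all FPKM with GSK805+ILA, 11.6938% to 12.0025% with GSK805, 13.7% to 14.1% with ILA and 13.8% to 14.6% with vehicle.

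Genes of mitosis had negative interactions: more of them fell with ILA in GSK805-treated cells than with ILA alone. Of 24 kept genes of mitosis and G2/M, 17 fell and 0 rose with ILA in GSK805-treated cells (17.5% and 22.0% of all genes). With ILA alone 10 rose and 0 fell (33.9% and 24.0% of all genes). The interaction was negative for 18 and positive for 0 (8.7% and 5.15% of all genes), with a median of -0.58. GSK805 lowered 21 of the 24 in ILA-treated cells (8.64% of all genes fell there) and 0 on its own (7.08% of all genes). The rise with ILA alone depends on scaling: after quantile normalization 5 rose and 3 fell, after median centring 5 rose and 2 fell, and after GC and length trends were removed 6 rose and 2 fell. The interaction kept its sign, with 12, 12 and 15 negative and 0 positive members, and the fall with ILA in GSK805-treated cells was called for 19, 18 and 18. By the course definition 9 of the 18 were enhanced, 5 reversed and 4 blunted.

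Mki67, which encodes the proliferation marker Ki-67, read 10.2, 11.3 and 11.3 FPKM in the GSK805+ILA libraries, 16.4, 15.5 and 15.6 in the GSK805 libraries, 18.8, 19.97 and 19.01 in the ILA libraries and 15.2, 13.7 and 13.2 in the vehicle libraries. The ILA libraries stood above all others and the GSK805+ILA libraries below all others. ILA lowered Mki67 1.41-fold with GSK805 (log2 -0.50 ± 0.0585 (SE), adjusted p = 5.73e-05) and raised it 1.35-fold without (log2 0.43 ± 0.0585 (SE), adjusted p = 7.06e-05), an interaction of -0.93 ± 0.0827 (SE), adjusted p = 0.000434 by limma, and it kept both directions as calls under quantile normalization, median centring and removal of GC and length trends. Cdc20, an activator of the anaphase-promoting complex, read 8.85, 9.97 and 9.32 FPKM in the GSK805+ILA libraries, 14.6, 16.8 and 17.2 in the GSK805 libraries, 16.8, 19.5 and 17.6 in the ILA libraries and 13.5, 17.4 and 16.3 in the vehicle libraries. Only the GSK805+ILA libraries stood apart, below the other 9. The interaction of Cdc20 was -0.91 ± 0.13 (SE), adjusted p = 0.00209, with a 1.66-fold fall with GSK805 (adjusted p = 9.70e-05) and no call without (log2 0.19, adjusted p = 0.107).

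Other mitotic genes followed. Top2a, a DNA topoisomerase, averaged 7.12 ± 0.374 FPKM with GSK805+ILA, 11.1 ± 0.242 with GSK805, 10.99 ± 0.947 with ILA and 10.1 ± 0.543 with vehicle (SD, n = 3 each), with an interaction of -0.69 ± 0.0904 (SE), adjusted p = 0.00158. Tpx2, a spindle assembly factor, showed -0.79 ± 0.14 (SE), adjusted p = 0.00553, Plk1, a mitotic kinase, -0.67 ± 0.16 (SE), adjusted p = 0.0203, and Ckap2l, a spindle protein, -0.77 ± 0.17 (SE), adjusted p = 0.0155. The call of Plk1 was lost in 2 of 22 alternatives (adjusted p up to 0.0588): no filter on low values and leaving out vehicle replicate 3. Birc5 (survivin, -0.78), Nusap1 (-0.85), Bub1b (-0.66) and Stmn1 (-0.69), which all act on the spindle or its checkpoint, were reversed here, but after quantile normalization and after median centring their rise with ILA alone was no longer called. Tcf19, a gene induced at the G1/S boundary, averaged 6.27 ± 0.789 FPKM with GSK805+ILA, 8.54 ± 0.504 with GSK805, 9.98 ± 0.935 with ILA and 7.11 ± 0.240 with vehicle (SD, n = 3 each) and was reversed under all of these scalings, with an interaction of -0.83 ± 0.12 (SE), adjusted p = 0.00224. Cenpa, the centromeric histone, differed: it rose 1.89-fold with ILA alone and was not called for ILA with GSK805 (log2 0.05, adjusted p = 0.492), with an interaction of -0.87 ± 0.0783 (SE), adjusted p = 0.000434.

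DNA replication and G1/S genes went the same way with fewer calls. Of 32 kept, 21 fell and 0 rose with ILA in GSK805-treated cells (17.5% and 22.0% of all genes), while 7 rose and 9 fell with ILA alone (33.9% and 24.0% of all genes), and 9 had a negative and 0 a positive interaction (8.7% and 5.15%). The median change with ILA alone, 0.04, turned negative under quantile normalization (-0.08), median centring (-0.09) and removal of GC and length trends (-0.09), each with 6 negative interactions. Mcm2 (-0.41) and Mcm6 (-0.41), subunits of the replicative helicase, Rrm2 (-0.54), a subunit of ribonucleotide reductase, and Uhrf1 (-0.60), a factor of maintenance methylation, were reversed. These 4 are all of the reversed members of that list. Under the same other scalings, in the same order, 3, 1 and 3 members of the list rose with ILA alone, against 7 here. The 4 reversed genes therefore cannot all have kept that course under any of those scalings, and their reversal depends on scaling. Mcm7, from the same helicase, was additive and fell with ILA by 1.46-fold with GSK805 and 1.38-fold without. In whole cultures, fewer cells of a kind and less RNA per cell cannot be told apart, and that holds for cycling cells here.

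Promoters of Cdc20 and Mki67 are shown because they carry the letters TTTGAA, the core of the cell cycle homology region found before many late cell cycle genes. On either strand, 8 of the 20 mitotic genes with a promoter sequence hold them (Ccnb2, Cdc20, Cdk1, Kif11, Kif2c, Mki67, Top2a and Ube2c), against 10.6% of all 8649 promoters. Matches are in capitals, 1 for Cdc20 and 2 for Mki67. Both are RefSeq sequence on GRCm38.p6, minus strand, chr4:118437344-118437593 and chr7:135716380-135716629.
Cdc20: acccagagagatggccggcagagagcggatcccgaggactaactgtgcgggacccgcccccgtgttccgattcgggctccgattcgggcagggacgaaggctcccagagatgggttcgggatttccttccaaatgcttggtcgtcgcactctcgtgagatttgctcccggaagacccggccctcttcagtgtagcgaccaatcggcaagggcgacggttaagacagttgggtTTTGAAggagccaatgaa
Mki67: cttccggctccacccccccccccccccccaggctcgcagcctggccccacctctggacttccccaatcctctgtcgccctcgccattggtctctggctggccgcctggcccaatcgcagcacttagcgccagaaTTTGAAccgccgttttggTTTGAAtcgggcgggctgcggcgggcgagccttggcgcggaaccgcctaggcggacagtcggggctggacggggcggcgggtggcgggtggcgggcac

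**Figure D4:**
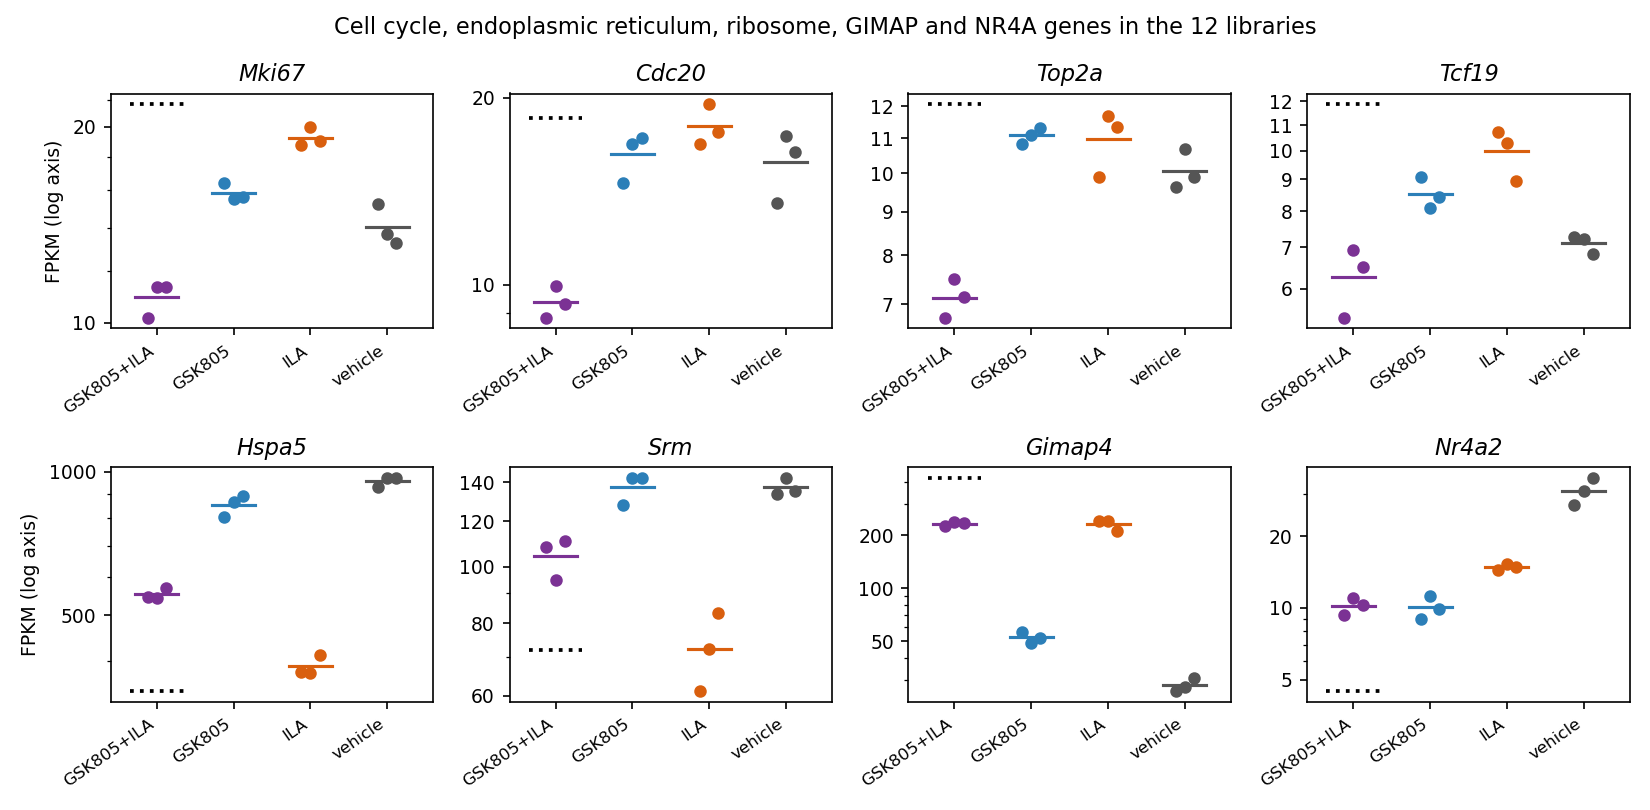
FPKM in each library (points, log axis) for Mki67, Cdc20, Top2a, Tcf19, Hspa5, Srm, Gimap4 and Nr4a2, with group means as lines and the multiplicative level dotted. The first 4 lie below the dotted level with GSK805+ILA; Hspa5, Srm and Nr4a2 lie above it, and Gimap4, at a mean of 233 FPKM with GSK805+ILA and 231 FPKM with ILA, lies below.

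Positive interactions were also seen for some secreted and surface products of activated T cells, which fell steeply with ILA alone and less with GSK805 present. Tnfsf14, Xcl1, Ccl3 and Slamf7 were named by the size of their interaction. Whole lists of such products held calls in both directions. Chemokines had 4 positive and 2 negative of 19, the tumour necrosis factor family 5 and 3 of 20, growth cytokines 2 and 1 of 11. Over all kept genes 5.15% were positive and 8.7% negative. Il2, the growth factor of T cells, read 223, 221 and 277 FPKM in the GSK805+ILA libraries, 457, 542 and 570.3 in the GSK805 libraries, 117, 136 and 161 in the ILA libraries and 592, 619 and 622 in the vehicle libraries. ILA was lowest and vehicle highest, with GSK805+ILA between GSK805 and ILA and no overlap. ILA lowered Il2 2.17-fold with GSK805 and 4.43-fold without (interaction 1.03 ± 0.17 (SE), adjusted p = 0.00504 by limma). Tnfsf14, which encodes the ligand LIGHT, read 20.8, 20.6 and 24.1 FPKM in the GSK805+ILA libraries, 42.2, 50.8 and 48.8 in the GSK805 libraries, 8.19, 9.87 and 10.2 in the ILA libraries and 50.5, 52.5 and 53.6 in the vehicle libraries. GSK805 overlapped vehicle, ILA was lowest, and the interaction was 1.27 ± 0.13 (SE), adjusted p = 0.000434. Xcl1, a chemokine for cross-presenting dendritic cells, read 8.52, 9.11 and 11.4 FPKM in the GSK805+ILA libraries, 26.7, 25.4 and 24.03 in the GSK805 libraries, 5.84, 5.79 and 5.79 in the ILA libraries and 35.5, 48.6 and 50.5 in the vehicle libraries. Its groups did not overlap, and the interaction was 1.42 ± 0.18 (SE), adjusted p = 0.00125.

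Ccl3, a chemokine for monocytes and T cells, averaged 20.4 ± 4.59 FPKM with GSK805+ILA, 40.8 ± 2.54 with GSK805, 13.7 ± 1.60 with ILA and 65.01 ± 6.64 with vehicle (SD, n = 3 each), with an interaction of 1.18 ± 0.21 (SE), adjusted p = 0.00599. The related Ccl4 (1.03) and Ccl5 (0.71) were blunted too, and so was the receptor Tnfrsf9 (4-1BB, 0.72). The call of Ccl5 was lost in 3 of 22 alternatives (adjusted p up to 0.141): no filter on low values, the linear FPKM scale and leaving out vehicle replicate 3. Slamf7, a receptor of the SLAM family, averaged 2.49 ± 0.355 FPKM with GSK805+ILA, 6.25 ± 0.840 with GSK805, 1.23 ± 0.338 with ILA and 9.31 ± 0.199 with vehicle (SD, n = 3 each), with 1.17 ± 0.17 (SE), adjusted p = 0.00210. Nkg7, a cytotoxic granule protein, showed 1.01 ± 0.22 (SE), adjusted p = 0.0127. Ifng, the signature cytokine of Th1 cells, read 1.24, 1.58 and 1.05 FPKM with GSK805+ILA, 4.68, 2.99 and 3.38 with GSK805, 0.965, 1.07 and 1.08 with ILA and 6.65, 6.66 and 9.02 with vehicle; the groups with ILA overlapped at the bottom. Its interaction was 1.02 ± 0.21 (SE), adjusted p = 0.00993 by limma, with a shared final level near 1 FPKM, the size of the pseudocount. Ifng was classed as blunted after quantile normalization and after removal of GC and length trends. Markers of CD8 T and NK cells moved with these genes: they summed to 1.96 to 2.08 FPKM with GSK805+ILA, 3.99 to 4.81 with GSK805, 1.46 to 2.04 with ILA and 3.91 to 5.49 with vehicle. Most of that was Cd8b1, with Eomes at up to 0.550 FPKM (ILA replicate 2) and Cd8a at up to 0.298 FPKM. Of the 5 markers only Cd8b1 was kept, and its interaction was not called. Their part in the result was not tested.

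Early activation genes of the NR4A, EGR and feedback type gave 10 positive and 1 negative interaction of 21 (5.15% and 8.7% of all genes), with a median of 0.27, and 5 positive without a filter and 6 on the linear FPKM scale. Nr4a2, an orphan nuclear receptor, read 9.31, 11.04 and 10.3 FPKM in the GSK805+ILA libraries, 9.02, 11.2 and 9.90 in the GSK805 libraries, 14.4, 15.3 and 14.8 in the ILA libraries and 26.9, 31.0 and 35.1 in the vehicle libraries. With GSK805 the libraries with and without ILA overlapped, while ILA alone lowered it 2.01-fold and GSK805 alone lowered it 2.89-fold, and the interaction was 1.03 ± 0.14 (SE), adjusted p = 0.00161 by limma. Its relative Nr4a3 averaged 37.1 ± 2.52 FPKM with GSK805+ILA, 51.8 ± 4.30 with GSK805, 43.8 ± 1.44 with ILA and 98.4 ± 6.61 with vehicle (SD, n = 3 each), with 0.68 ± 0.10 (SE), adjusted p = 0.00216, but Nr4a1 was additive (0.10 ± 0.11 (SE), adjusted p = 0.618). Spry1, a feedback inhibitor of receptor kinase signalling, averaged 13.6 ± 1.33 FPKM with GSK805+ILA, 28.8 ± 1.58 with GSK805, 9.14 ± 2.12 with ILA and 33.1 ± 1.12 with vehicle (SD, n = 3 each), with 0.74 ± 0.18 (SE), adjusted p = 0.0235. Its call was lost in 5 of 22 alternatives (adjusted p up to 0.0643): no filter on low values, leaving out GSK805+ILA replicate 3, GSK805 replicate 1 or 2 and vehicle replicate 3. Dusp6, a phosphatase of ERK, was the member with a negative interaction and rose with ILA (-0.50 ± 0.0740 (SE), adjusted p = 0.00240), though not called on the linear FPKM scale. Among 13 AP-1 factors 5 were positive and 0 negative (5.15% and 8.7% of all genes). Fosb averaged 39.6 ± 7.09 FPKM with GSK805+ILA, 37.4 ± 4.15 with GSK805, 41.6 ± 5.13 with ILA and 77.9 ± 10.3 with vehicle (SD, n = 3 each), with 0.96 ± 0.20 (SE), adjusted p = 0.0126. All 4 called members of the 14 NF-kB feedback genes were positive (5.15% of all genes) and reached a shared final level, among them Nfkb1 (0.43), Nfkbib (0.50) and Nfkbid (0.49).

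Genes that rose to a shared final level included most of the GIMAP family, GTPases that support the survival of naive lymphocytes. Of 8 kept members, all 8 rose with ILA in both settings (22.0% of all genes rose with GSK805 present and 33.9% without). The interaction was negative for 7 and positive for 0 (8.7% and 5.15% of all genes), and all 7 reached a shared level. Gimap4 read 225, 237 and 236 FPKM in the GSK805+ILA libraries, 56.7, 49.0 and 51.9 in the GSK805 libraries, 240.4, 240.1 and 213 in the ILA libraries and 26.01, 27.5 and 30.9 in the vehicle libraries. The libraries with ILA overlapped each other, those with GSK805 alone lay below them and vehicle lay lowest. ILA raised Gimap4 4.37-fold with GSK805 and 7.97-fold without, GSK805 alone raised it 1.84-fold, and the interaction was -0.87 ± 0.10 (SE), adjusted p = 0.000928 by limma. Gimap3 averaged 219 ± 5.96 FPKM with GSK805+ILA, 85.9 ± 2.32 with GSK805, 192 ± 3.95 with ILA and 46.0 ± 2.01 with vehicle (SD, n = 3 each), with -0.70 ± 0.0548 (SE), adjusted p = 0.000192, and Gimap8 43.5 ± 1.13 FPKM with GSK805+ILA, 24.7 ± 0.609 with GSK805, 50.6 ± 2.15 with ILA and 18.2 ± 1.97 with vehicle (SD, n = 3 each), with -0.64 ± 0.0889 (SE), adjusted p = 0.00196. On the linear FPKM scale 2 of the 8 were called.

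The T cell receptor complex and its signalling partners gave 0 positive and 9 negative interactions of 17 (5.15% and 8.7% of all genes), with 14 rises with ILA in GSK805-treated cells (22.0%) and 16 with ILA alone (33.9%). Negative calls were 6 with median centring and 6 without trend and robust moderation. Several of them are also the CD4 T cell markers whose sums are given above, and 4 of those 8 markers had a negative interaction. Fyb, an adaptor of the receptor, read 50.9, 57.1 and 55.2 FPKM in the GSK805+ILA libraries, 16.7, 14.7 and 14.2 in the GSK805 libraries, 75.7, 80.1 and 72.3 in the ILA libraries and 11.8, 13.8 and 13.4 in the vehicle libraries. ILA lay highest and GSK805+ILA next, with no overlap, and the interaction was -0.69 ± 0.10 (SE), adjusted p = 0.00252. Cd3e, a chain of the receptor complex, averaged 38.1 ± 2.13 FPKM with GSK805+ILA, 24.9 ± 0.918 with GSK805, 37.5 ± 0.768 with ILA and 19.04 ± 0.313 with vehicle (SD, n = 3 each), with -0.35 ± 0.0622 (SE), adjusted p = 0.00535; its 2 groups with ILA overlapped. Cd2, an adhesion receptor, averaged 119 ± 6.57 FPKM with GSK805+ILA, 66.8 ± 5.16 with GSK805, 139 ± 6.07 with ILA and 52.6 ± 1.27 with vehicle (SD, n = 3 each), with -0.56 ± 0.0821 (SE), adjusted p = 0.00237.

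Other genes with a shared final level were named by the size of both single-agent changes. Hivep3, a zinc finger transcription factor, read 50.3, 48.8 and 48.2 FPKM with GSK805+ILA, 28.1, 28.2 and 29.5 with GSK805, 50.9, 52.6 and 52.3 with ILA and 16.6, 12.9 and 14.4 with vehicle, with no overlap between groups, and had an interaction of -1.01 ± 0.10 (SE), adjusted p = 0.000434. Plek, which encodes pleckstrin, fell the same way: it averaged 4.27 ± 0.188 FPKM with GSK805+ILA, 11.3 ± 0.492 with GSK805, 4.496 ± 1.04 with ILA and 22.7 ± 1.22 with vehicle (SD, n = 3 each), with 0.90 ± 0.15 (SE), adjusted p = 0.00424. Wincr1, a long noncoding RNA with low values, averaged 1.51 ± 0.609 FPKM with GSK805+ILA, 2.91 ± 0.294 with GSK805, 1.41 ± 0.170 with ILA and 6.26 ± 1.27 with vehicle (SD, n = 3 each), with 0.91 ± 0.25 (SE), adjusted p = 0.0332. Its call was lost in 13 of 22 alternatives (adjusted p up to 0.0955): no filter on low values, a pseudocount of 0.1, voom on recovered reads, leaving out GSK805+ILA replicate 2 or 3, GSK805 replicate 1, 2 or 3, ILA replicate 1, 2 or 3 and vehicle replicate 1 or 3. Nt5e, which encodes the ectoenzyme CD73, averaged 73.6 ± 1.94 FPKM with GSK805+ILA, 42.3 ± 2.12 with GSK805, 91.8 ± 2.53 with ILA and 27.0 ± 1.26 with vehicle (SD, n = 3 each), with -0.95 ± 0.0647 (SE), adjusted p = 8.59e-05. It was chosen after its values were seen, as was Acly, the enzyme that makes cytosolic acetyl-CoA. Acly fell with ILA and averaged 73.0 ± 1.12 FPKM with GSK805+ILA, 150.2 ± 7.41 with GSK805, 59.5 ± 2.31 with ILA and 227 ± 5.31 with vehicle (SD, n = 3 each), with 0.89 ± 0.0589 (SE), adjusted p = 8.59e-05 by limma. A shared level allows a difference of up to 0.5 log2. With both agents Nt5e stayed below its level with ILA (73.6 against 91.8 FPKM), and Acly above its own (73.0 against 59.5 FPKM).

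The blunted rises included both chains of the interleukin-18 receptor. Il18r1 read 12.3, 13.3 and 12.6 FPKM in the GSK805+ILA libraries, 5.81, 4.85 and 5.03 in the GSK805 libraries, 24.8, 23.2 and 23.9 in the ILA libraries and 5.26, 4.83 and 5.65 in the vehicle libraries. GSK805 and vehicle overlapped, and ILA lay far above GSK805+ILA. ILA raised Il18r1 2.20-fold with GSK805 and 4.003-fold without, while GSK805 alone was not called (log2 -0.01), and the interaction was -0.86 ± 0.0949 (SE), adjusted p = 0.000835 by limma. Its partner Il18rap averaged 4.77 ± 0.638 FPKM with GSK805+ILA, 2.11 ± 0.230 with GSK805, 9.45 ± 0.192 with ILA and 2.10 ± 0.276 with vehicle (SD, n = 3 each), with -0.87 ± 0.13 (SE), adjusted p = 0.00284. Sntb1, a syntrophin of the cell cortex, showed -0.92 ± 0.14 (SE), adjusted p = 0.00260 and Rab29, a small GTPase, -0.97 ± 0.21 (SE), adjusted p = 0.0141. Ifitm1, an interferon-inducible membrane protein, read 2.45, 1.47 and 2.14 FPKM with GSK805+ILA, 1.95, 2.23 and 1.22 with GSK805, 9.68, 10.4 and 9.12 with ILA and 1.90, 2.81 and 4.61 with vehicle. The ILA group lay above the rest, which overlapped, and the interaction was -1.33 ± 0.31 (SE), adjusted p = 0.0203. That call was lost in 2 of 22 alternatives (adjusted p up to 0.0566): no filter on low values and leaving out GSK805 replicate 1. Among the named blunted falls, the largest interaction belonged to Rnu12, a small nuclear RNA of 151 bases with 1 to 23 reads per library, whose interaction of 2.20 ± 0.40 (SE) (adjusted p = 0.00670) rests on few reads. Gprin3, in the enhanced class, differed from the mitotic genes there: it averaged 5.82 ± 0.508 FPKM with GSK805+ILA, 13.8 ± 1.44 with GSK805, 6.02 ± 0.334 with ILA and 7.94 ± 2.25 with vehicle (SD, n = 3 each), with GSK805 above all other libraries, and its interaction was -0.80 ± 0.21 (SE), adjusted p = 0.0302. The call was lost in 8 of 22 alternatives (adjusted p up to 0.0811): no filter on low values, voom on recovered reads, leaving out GSK805+ILA replicate 2 or 3, GSK805 replicate 1, ILA replicate 1 or 2 and vehicle replicate 3.

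Additive genes were those in which the agents pulled with or against each other and the 95% interval of the interaction, not called, lay within 0.5 log2 of 0. Another 417 genes had both agents called and no called interaction but a wider interval, and were left unresolved. Ctla4, an inhibitory receptor, read 103, 122 and 108 FPKM in the GSK805+ILA libraries, 54.9, 49.2 and 43.4 in the GSK805 libraries, 186, 192 and 181 in the ILA libraries and 83.4, 91.2 and 99.1 in the vehicle libraries. ILA was highest and GSK805 lowest, with GSK805+ILA above vehicle between them and no overlap. ILA raised Ctla4 2.24-fold with GSK805 and 2.04-fold without, and the interaction was 0.14 ± 0.13 (SE), adjusted p = 0.511 with a 95% interval of -0.14 to 0.41. Rbpms2, an RNA-binding protein, averaged 17.98 ± 1.11 FPKM with GSK805+ILA, 5.17 ± 0.585 with GSK805, 42.7 ± 2.60 with ILA and 13.6 ± 0.836 with vehicle (SD, n = 3 each), with 0.04 ± 0.11 (SE), adjusted p = 0.846. Ly6e, a surface protein induced by interferon, showed 0.03 ± 0.10 (SE), adjusted p = 0.863, Tmem176b, an ion channel protein expressed in Th17 cells, -0.17 ± 0.0840 (SE), adjusted p = 0.204, and Vps37b, a sorting factor, -0.15 ± 0.15 (SE), adjusted p = 0.549. On the linear FPKM scale the interactions of Ctla4, Ly6e and Rbpms2 were negative, where an equal fold on a lower level gives a smaller difference. Foxp3, the factor of regulatory T cells, was low throughout, at 2.17 ± 0.0221 FPKM with GSK805+ILA, 1.84 ± 0.0754 with GSK805, 1.68 ± 0.173 with ILA and 1.23 ± 0.306 with vehicle (SD, n = 3 each), and additive (-0.11 ± 0.14 (SE), adjusted p = 0.656). Its course depends on scaling. Neither agent was called for Foxp3 after quantile normalization, median centring or removal of GC and length trends (limma adjusted p for ILA alone 0.465, 0.278 and 0.528). Of the 954 additive genes, 514 rose with both single agents, 177 fell with both and 263 moved in opposite directions.

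Il10, Tiparp and Tbx21 complete the genes named by the rule. Il10, an anti-inflammatory cytokine, averaged 2.51 ± 0.317 FPKM with GSK805+ILA, 3.47 ± 0.1001 with GSK805, 1.63 ± 0.298 with ILA and 2.74 ± 0.872 with vehicle (SD, n = 3 each), and its interaction was not called (0.14 ± 0.21 (SE), adjusted p = 0.700). Tiparp fell with ILA alone (log2 -0.26, adjusted p = 0.0147) and was not called for ILA with GSK805 (log2 0.08). Its interaction missed the threshold (0.34 ± 0.11 (SE), adjusted p = 0.0650) but passed it with median centring, removal of GC and length trends, the filter at 5 FPKM, voom, and without ILA replicate 1. Tbx21, the factor of Th1 cells, was below the filter. Some named genes share exon sequence with another annotated gene, and how strands were treated is not stated in the labels: the share of exon bases was 25.9% for Ifng, 24.4% for Spry1, 22.3% for Bnip3, 18.7% for Xcl1, 18.6% for Foxp3 with Flicr and 32.9% for Vps37b with Hip1r, so their values may include reads of the neighbour.

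**Figure D5:**
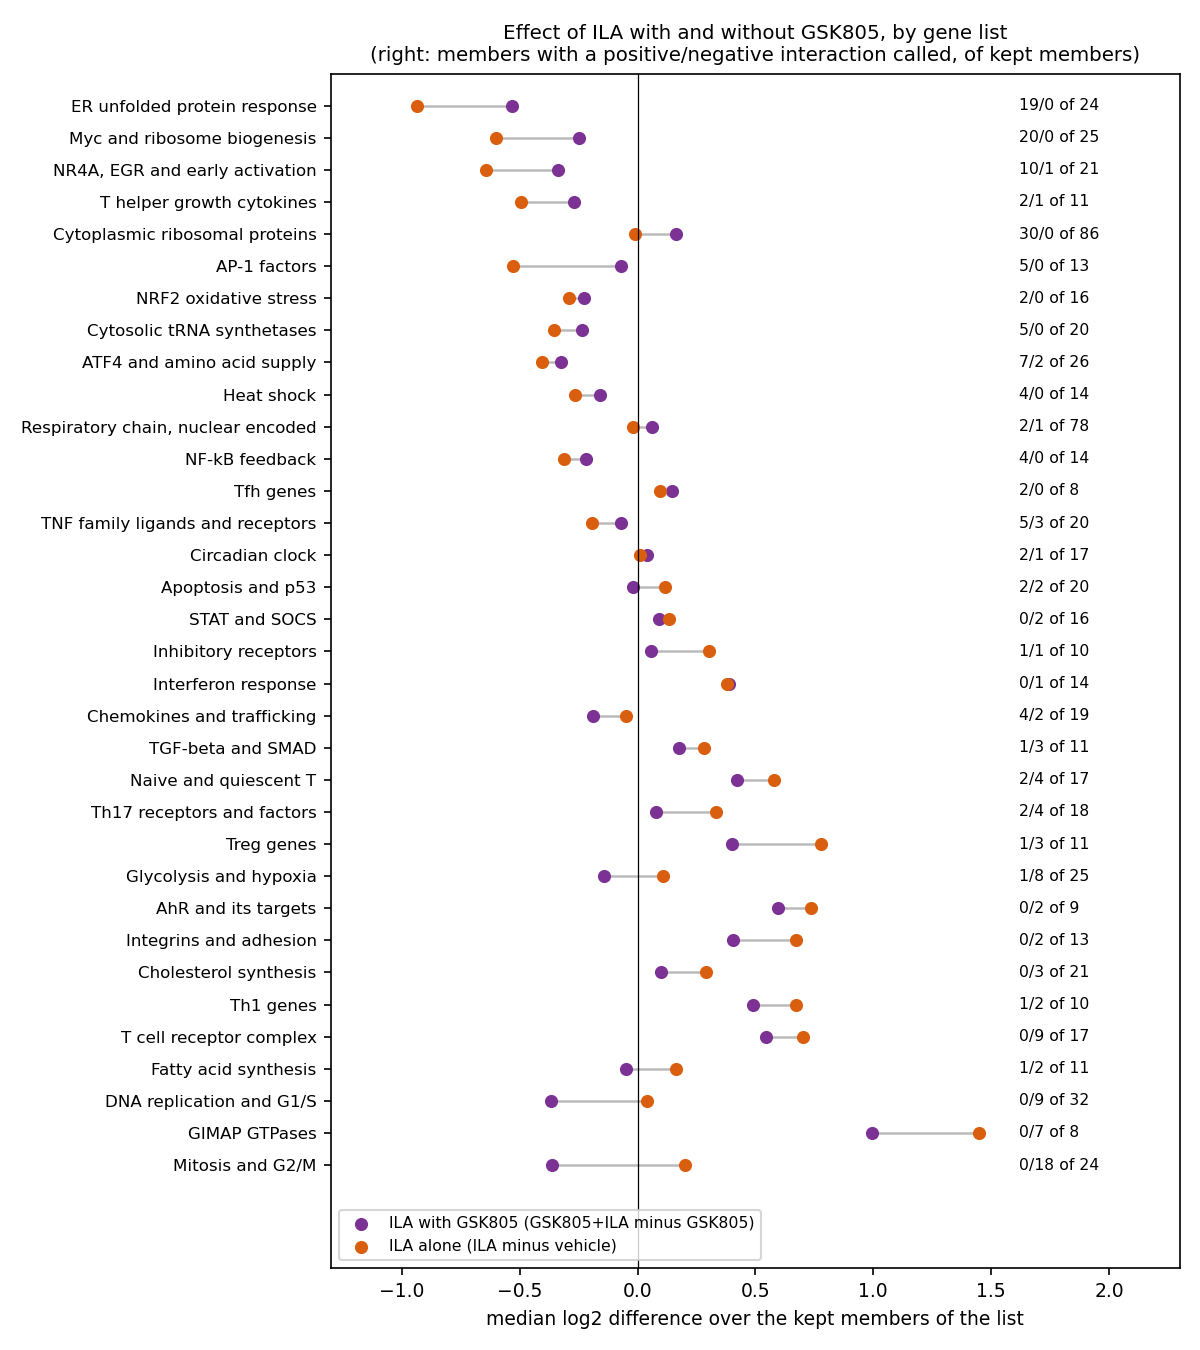
Median log2 change with ILA in the presence of GSK805 and with ILA alone (points) for each list with at least 8 kept members, with the number of positive and negative interaction calls of the kept members at the right. The ER unfolded protein response (19 positive of 24) and ribosome biogenesis (20 of 25) lie below 0 with the larger fall for ILA alone, and mitosis (18 negative of 24) lies on either side of 0.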

How the data were processed

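The series holds 12 RNA libraries of mouse Th17 cultures, 3 in each of 4 groups that were taken from the sample labels. The files hold FPKM that the authors calculated, and the values were taken as they were deposited. FastQC 0.11.2, Bowtie and the build mm10 are named, per the submitters' processing notes. The sources used here do not state the version of Bowtie, the read counter, the annotation or the use of strand. Reads were recovered with the gene lengths of the reference annotation (GRCm38). Among nonzero values, the most abundant genes left out, 98.7% to 98.8% lay within 0.1 of whole reads. The same step gave the depths of 17.8 to 23.5 M reads per library.

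The filter kept genes whose mean reached 1 FPKM in any group. Group means were modelled on the log2(FPKM + 1) scale, over the 12 libraries together, in limma 3.58.1 (R 4.3.3; variance trend and robust moderation switched on). The interaction and the single changes were contrasts of that fit, adjusted by the Benjamini-Hochberg method over all kept genes. The fit was tested on simulated data first. Courses were assigned from calls below 0.05 and 95% intervals within 0.5 log2 of 0. All 43 lists are described by counts and medians, without a set test. Figures were drawn in Python 3.11.15 with matplotlib 3.10.9, and tables were made with pandas 2.3.3 and numpy 2.4.6.

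Genes were named by rule: 20 fixed genes (1 is not reported here), 6 per course with at least 5 FPKM in a group ranked by size of change (12 for blunted genes, 6 in each direction), and up to 3 members from each of the 6 lists with the largest share of called interactions. Further list members are given as examples, and the rule and lists were written with earlier results of these data known, as was the choice of the interaction itself. Alternatives were other scalings, filters, pseudocounts, margins and thresholds, voom on recovered reads, removal of GC and length trends, the replicate number as a block, and leaving out each library.

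Promoter sequences came from a RefSeq table on GRCm38.p6, which matched 8649 kept genes by symbol.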

Additional observations from a re-analysis of the deposited data

Results flagged for a closer look

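For 7 named genes the ILA change had opposite signs with and without GSK805, both called, and the difference itself was tested by the interaction term (limma, Benjamini-Hochberg adjusted over all kept genes). The log2 interaction was -0.93 for Mki67, -0.85 for Nusap1, -0.83 for Tcf19, -0.78 for Birc5, -0.69 for Stmn1, -0.66 for Bub1b and -0.65 for Bnip3, a mitochondrial protein induced by low oxygen. All 7 fell with ILA in GSK805-treated cells and rose with ILA alone.

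The direction is relative to the scaling of the libraries. Under quantile normalization and under median centring, Mki67 and Tcf19 kept both calls, and for the other 5 the rise with ILA alone was no longer called, though the interaction still was. Over all 46 reversed genes, the interaction had the same sign in 46 of 46 under both, and the course was the same in 21 and 14. Groups of 3 libraries were too small for a test of single outlying libraries.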

How the results depend on the processing

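The number of called interactions was 1067 without a filter, 2022 with median centring, 1566 with quantile normalization, 2616 with voom on recovered reads, and 1975 with the replicate block, against 1871 here; of these 1013, 1457, 1378, 1722 and 1704 were shared. Same-numbered libraries did not deviate together (correlations of -0.08 to 0.08), so the replicate block rests on a shared number alone. Positive calls were 1261 with median centring, 368 without a filter and 1158 with GC and length trends removed; negative calls were 761 with median centring and 699 without a filter. Without a filter the courses held 20 reversed, 521 shared-level, 475 blunted, 48 enhanced, 3 other and 21230 genes with neither agent called. At an adjusted p below 0.01 they held 8 reversed, 315 shared-level, 248 blunted, 15 enhanced, 0 other and 471 additive genes, and with an interaction of at least 1.5-fold 24, 123, 195, 28 and 3, with 948 unresolved. A margin of 0.25 log2 gave 530 shared-level, 234 additive and 1137 unresolved genes, and one of 1 log2 gave 51 unresolved. The filter at 5 FPKM gave 224 unresolved, 3478 with 1 agent called and 2271 with neither. Enhanced genes were 181 with voom, and other genes 2 with quantile normalization, 17 with voom and 4 without trend and robust moderation. On the linear FPKM scale the interaction turned sign for Ctla4 (-33.4 FPKM), Ly6e (-13.3), Rbpms2 (-16.3), Cyp1b1 (6.14), Cyp1a1 (15.05) and Ahrr (0.139), and on the log2 scale for Ccr6 (-0.66 with a pseudocount of 0.1, -1.06 with voom). Without 1 library, interactions that were not called crossed 0 for Ccl20 (-0.0612 to 0.399), Il10 (-0.0378 to 0.287), Ly6e (-0.0247 to 0.125) and Rbpms2 (-0.0388 to 0.0962). Courses have no value on the linear scale, since their margins are log2. Over the named genes, 1367 values kept direction and side of the threshold, 49 lost the call, 18 gained it and 15 turned sign; the cause was not tested.

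Leaving out 1 library gave 1195 to 1969 called interactions (1195 without GSK805+ILA replicate 3, 1206 without GSK805 replicate 1), 414 to 721 positive and 758 to 1248 negative. Calls for ILA with GSK805 were 4423 to 5364, for ILA alone 7114 to 7781, for GSK805 with ILA 1596 to 2581 and for GSK805 alone 2098 to 2998. Reversed genes were 24 to 43, shared-level 544 to 983, blunted 482 to 793, enhanced 43 to 146, other 1 to 15, additive 621 to 988, unresolved 340 to 576, 1 agent called 5039 to 5953 and neither called 5045 to 5902.

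Groups of 3 and the depth of 17.8 to 23.5 M reads limit the precision of low genes most. The values used are FPKM, so counting error is not separated from other spread.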

Other observations

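Several lists not described so far held called interactions of mixed direction. In the list of transforming growth factor β receptors and SMAD factors, 1 of 11 kept members had a positive and 3 a negative interaction (5.15% and 8.7% of all genes), all 4 with a shared final level. Smad3, a signal transducer of the pathway, averaged 31.9 ± 1.31 FPKM with GSK805+ILA, 21.8 ± 0.308 with GSK805, 28.4 ± 0.451 with ILA and 14.0 ± 0.655 with vehicle (SD, n = 3 each), with an interaction of -0.44 ± 0.0594 (SE), adjusted p = 0.00167 by limma. Tgfbr2 (-0.53) and Tgfbr3 (-0.51), both receptors, rose likewise, and Tgif1, a corepressor, fell (0.39). Naive T cell genes gave 2 positive and 4 negative of 17: Tcf7, a transcription factor of naive and memory T cells, averaged 307 ± 17.0 FPKM with GSK805+ILA, 175 ± 6.32 with GSK805, 336 ± 8.85 with ILA and 140.2 ± 3.20 with vehicle (SD, n = 3 each), with -0.45 ± 0.0616 (SE), adjusted p = 0.00186, and Lef1, its relative, showed -0.59 ± 0.10 (SE), adjusted p = 0.00535. Of 11 regulatory T cell genes 1 was positive (Nrp1, a coreceptor of semaphorins, 0.56, a call lost in 9 of 21 alternatives, all of them leaving out 1 library) and 3 were negative, Nt5e (-0.95), Lrrc32 (-0.61) and Tnfrsf18 (-0.34).

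Metabolic lists were mixed. Of 25 genes of glycolysis and hypoxia, 1 was positive and 8 were negative (5.15% and 8.7% of all genes). Ldha, lactate dehydrogenase, averaged 161 ± 2.18 FPKM with GSK805+ILA, 166 ± 5.71 with GSK805, 212 ± 2.27 with ILA and 171 ± 9.27 with vehicle (SD, n = 3 each), with -0.35 ± 0.0575 (SE), adjusted p = 0.00396, and Eno1 (-0.30), Pfkl (-0.34) and Gpi1 (-0.31) were blunted too, though the call of Gpi1 was lost in 11 of 22 alternatives. After median centring the list gave 4 positive and 4 negative, and after removal of GC and length trends 3 and 6. Cholesterol synthesis gave 0 positive and 3 negative of 21 (14.3% called, near the 13.8% of all kept genes), with Srebf2, its transcription factor, at -0.30. Nuclear genes of the respiratory chain stood out by few calls, 2 positive and 1 negative of 78 (3.85% called, against 13.8% of all kept genes). Interferon response genes gave 0 positive and 1 negative of 14 (5.15% and 8.7% of all genes). Of the 14, 7 rose with ILA in GSK805-treated cells (22.0% of all genes) and 8 with ILA alone (33.9%).

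Over all kept genes, 5.15% had a positive and 8.7% a negative interaction, 13.8% together. The remaining lists ran from 12.5% called (STAT and SOCS, NRF2 targets), near that share, to 40% (tumour necrosis factor family), above it. Their calls were, as positive and negative of those kept: fatty acid synthesis 1 and 2 of 11, STAT and SOCS 0 and 2 of 16, integrins 0 and 2 of 13, NRF2 targets 2 and 0 of 16 (with Srxn1 at 0.59), circadian clock 2 and 1 of 17, apoptosis and p53 2 and 2 of 20, granzymes 2 and 0 of 7, inhibitory receptors 1 and 1 of 10, growth cytokines 2 and 1 of 11, tumour necrosis factor family 5 and 3 of 20, chemokines 4 and 2 of 19, Th1 genes 1 and 2 of 10 and follicular helper genes 2 and 0 of 8.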
